A study of Mus musculus with 2 samples.

Results

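The 9 genes described here mark retinal bipolar cells or carry the light response of ON bipolar cells. They were taken by name (Grm6, Trpm1, Nyx, Gpr179, Prkca, Cabp5, Vsx1, Lhx4 and Isl1) from a table of 21887 protein-coding genes of the mouse genome GRCm38, and all 9 were found. The assay was ATAC-seq: the transposase Tn5 inserts sequencing adapters where DNA is accessible, and the 5′ end of each read marks 1 insertion. Adult C57BL/6 littermates gave 1 library of Gabra3 knockout retina and 1 of wild-type retina, each from 20000 nuclei of frozen neural retina. Gabra3 encodes a subunit of GABA-A receptors, which are chloride channels opened by the transmitter GABA. The sources used here do not give the type of knockout allele, the sex or age in weeks of the mice, or whether a library holds more than 1 animal. Each locus was counted as the gene body with 5 kb either side, and each gene end as the 500 bp either side of it.

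Bipolar cells carry the signal of photoreceptors to the inner retina. In ON bipolar cells the glutamate released by photoreceptors in the dark binds the receptor mGluR6, which acts through a G protein to hold the cation channel TRPM1 shut, and light lifts that block. Mutations of Grm6, Trpm1, Nyx or Gpr179 cause congenital stationary night blindness in humans. Bipolar cells are a minority in the mouse retina, where rods are the most numerous cells. In such bulk tissue, fewer cells with an accessible site and less accessibility per cell cannot be told apart.

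The knockout library held 7646373 insertions and the wild-type library 7635799 after filtering. Pooled over both libraries, 36840 regions of the genome were accessible above their surroundings. These open regions took 18.8% of the autosomal insertions of knockout retina and 19.6% of those of wild-type retina. The body of Gabra3 on chromosome X held 121 knockout and 126 wild-type insertions and no open region (log2 ratio of knockout over wild type -0.06, -0.43 to 0.31); it therefore does not check the genotype label. With 1 library per genotype no test was possible, and every ratio compares these libraries, not the genotypes. All ratios below are log2 of knockout over wild type. They carry exact 95% (Clopper-Pearson) intervals, given in brackets, levels carry exact Poisson intervals, and both cover counting error only.

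The starts annotated by RefSeq differed widely in sequence among these genes. The proximal promoters of 6 of them are printed here, from 250 bases before to 50 bases after the annotated start (RefSeq, GRCm38.p6), because they show the contrast between CpG-rich and CpG-poor starts and the sites named below. Each reads 5′ to 3′ on the strand of its gene, and capitals mark the letters TAATCC on either strand, the core bound by the photoreceptor and bipolar homeodomain factors Crx and Otx2.
Prkca (chr11:108343839-108344138, minus strand): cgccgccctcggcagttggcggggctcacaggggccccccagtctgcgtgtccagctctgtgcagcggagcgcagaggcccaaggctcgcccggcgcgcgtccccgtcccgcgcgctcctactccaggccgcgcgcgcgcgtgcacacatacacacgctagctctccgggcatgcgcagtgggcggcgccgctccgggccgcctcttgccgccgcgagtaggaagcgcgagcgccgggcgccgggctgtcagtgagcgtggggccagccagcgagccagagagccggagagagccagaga
Isl1 (chr13:116309639-116309938, minus strand): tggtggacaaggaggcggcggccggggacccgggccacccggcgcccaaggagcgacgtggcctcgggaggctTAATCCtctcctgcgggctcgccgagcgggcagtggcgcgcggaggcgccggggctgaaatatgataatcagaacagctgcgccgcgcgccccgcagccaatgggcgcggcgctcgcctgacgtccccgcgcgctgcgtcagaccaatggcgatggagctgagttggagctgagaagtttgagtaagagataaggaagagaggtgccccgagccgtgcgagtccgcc
Cabp5 (chr7:13397905-13398204, plus strand): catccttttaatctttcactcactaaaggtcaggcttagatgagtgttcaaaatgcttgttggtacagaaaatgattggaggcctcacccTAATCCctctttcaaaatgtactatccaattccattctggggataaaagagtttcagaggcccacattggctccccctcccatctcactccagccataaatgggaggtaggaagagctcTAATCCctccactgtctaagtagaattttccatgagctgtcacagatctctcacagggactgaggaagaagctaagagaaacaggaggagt
Trpm1 (chr7:64153585-64153884, plus strand): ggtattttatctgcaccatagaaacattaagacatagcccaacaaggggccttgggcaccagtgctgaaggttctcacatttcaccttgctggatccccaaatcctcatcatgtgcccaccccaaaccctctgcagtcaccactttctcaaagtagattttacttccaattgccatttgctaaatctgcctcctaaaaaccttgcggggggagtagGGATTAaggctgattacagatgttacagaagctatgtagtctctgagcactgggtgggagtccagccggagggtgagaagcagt
Gpr179 (chr11:97352307-97352606, minus strand): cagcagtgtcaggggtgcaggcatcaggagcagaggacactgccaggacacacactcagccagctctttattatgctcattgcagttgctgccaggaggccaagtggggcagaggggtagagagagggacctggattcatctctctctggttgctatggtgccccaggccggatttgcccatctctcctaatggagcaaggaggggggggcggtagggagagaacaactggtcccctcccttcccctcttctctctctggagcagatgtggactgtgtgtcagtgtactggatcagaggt
Grm6 (chr11:50850435-50850734, plus strand): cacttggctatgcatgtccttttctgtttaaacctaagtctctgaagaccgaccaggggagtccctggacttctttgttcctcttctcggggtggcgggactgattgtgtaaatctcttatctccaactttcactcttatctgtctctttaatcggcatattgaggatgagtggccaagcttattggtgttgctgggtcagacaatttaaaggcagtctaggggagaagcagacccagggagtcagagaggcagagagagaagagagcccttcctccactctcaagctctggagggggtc

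Prkca and Isl1 start in CpG-rich DNA, and the starts of the ON-pathway genes do not. The ratio of observed to expected CpG was 0.99 for Prkca, 1.05 for Isl1 and 0.61 for Lhx4, against a median of 0.57 over 21263 annotated starts of protein-coding genes. It was 0.22 for Grm6, 0.20 for Nyx, 0.08 for Gpr179, 0.25 for Vsx1 and 0 for Cabp5. For Trpm1, which has 2 annotated starts, it was 0.11 at the first and 0.25 at the second. Thus 7 of the 10 annotated starts of these genes lay under a ratio of 0.35, and 3 lay above 0.6.

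TAATCC stood in 3 of the 10 promoters, those of Cabp5, Isl1 and the first start of Trpm1, against 6.42% of the 21263. Counted from 0 at the annotated start, the 2 matches of Cabp5 began at -160 and -41, that of Isl1 at -177, and that of Trpm1, on the opposite strand, at -34. TAATTA, a core of other homeodomain factors, stood in 0 of 10 promoters against 4.53% of all, and TATAAA in 0 of 10 against 12.6%. The E-box letters CANNTG, a core of basic helix-loop-helix factors, stood in 8 of 10, against 69.0% of all. All 4 motifs were searched on both strands and chosen after the counts were seen, and no TAATCC match overlapped a CANNTG match. A match describes the letters only.

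Over whole loci the median level of the bipolar genes lay above the autosomal mean and below the median of all protein-coding genes. Of the 9, 3 in knockout and 2 in wild-type retina lay above the median gene. Levels are insertions per kb per 1000000 autosomal insertions, written as level units below. The median of the 9 loci was 0.476 units in knockout and 0.505 in wild-type retina, beside an autosomal mean of 0.406. That mean is fixed by the scaling and the full length of the autosomes, and is therefore the same for each library. Over all 21887 protein-coding genes the median locus level was 0.658 in knockout and 0.652 in wild-type retina. Loci of 7 rod genes (Gnat1, Pde6a, Pde6b, Cnga1, Sag, Nrl and Nr2e3), each with an open region, had a median of 3.15 in knockout and 3.28 in wild-type retina. The level of Nyx is not adjusted for the copy number of chromosome X.

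**Figure D1:**
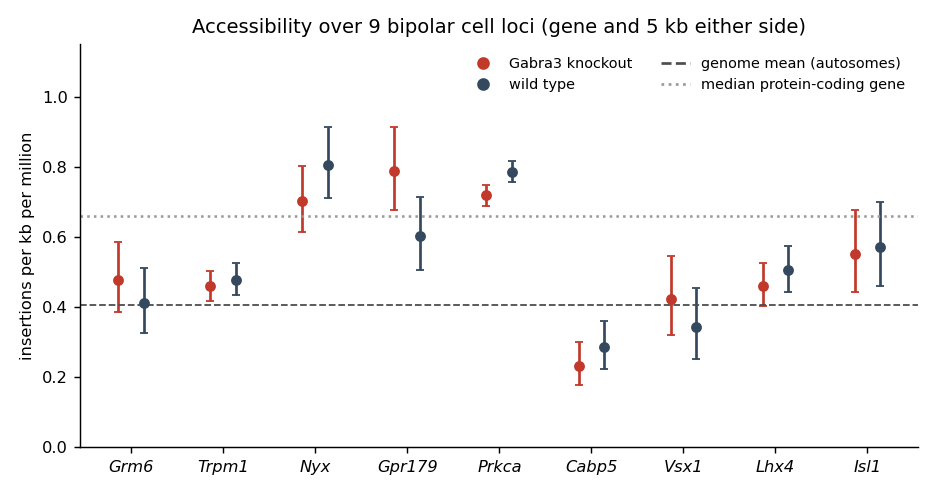
Insertions per kb per 1000000 autosomal insertions over each locus (gene body with 5 kb either side), for the knockout (left point) and wild-type (right point) library, with exact 95% Poisson intervals; the dashed line is the autosomal mean of 0.406 and the dotted line the median gene of the knockout library, 0.658. Gpr179, Prkca and Nyx lie highest, and Cabp5 lies lowest in both libraries.

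The order of the loci was led by Gpr179, Prkca and Nyx and closed by Cabp5. In the knockout library the levels in these units were 0.787 for Gpr179 (0.676 to 0.912), 0.718 for Prkca (0.688 to 0.748), 0.702 for Nyx, 0.550 for Isl1, 0.476 for Grm6, 0.460 for Lhx4, 0.458 for Trpm1, 0.421 for Vsx1 and 0.232 for Cabp5. In the wild-type library they were 0.806 for Nyx, 0.786 for Prkca (0.755 to 0.817), 0.603 for Gpr179 (0.506 to 0.713), 0.569 for Isl1, 0.505 for Lhx4, 0.478 for Trpm1, 0.410 for Grm6, 0.342 for Vsx1 and 0.285 for Cabp5. Neighbours in each order had overlapping intervals, except Vsx1 and Cabp5 in knockout and Prkca and Gpr179 in wild-type retina. Gpr179 thus stood in place 1 in knockout and in place 3 in wild-type retina. Its level rests in part on the 5 kb after the gene, which reach into the gene Mrpl45. Those 5 kb held 53 knockout and 44 wild-type insertions, and the gene body of 20.2 kb held 96 knockout and 68 wild-type insertions. An order by gene body alone was not made, so the place of Gpr179 holds only for loci counted with these flanks. Of the reads over Cabp5, 14.9% in knockout and 7.50% in wild-type retina were too poorly placed to be counted; at the other 8 loci this share was at most 2.04%.

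**Figure D2:**
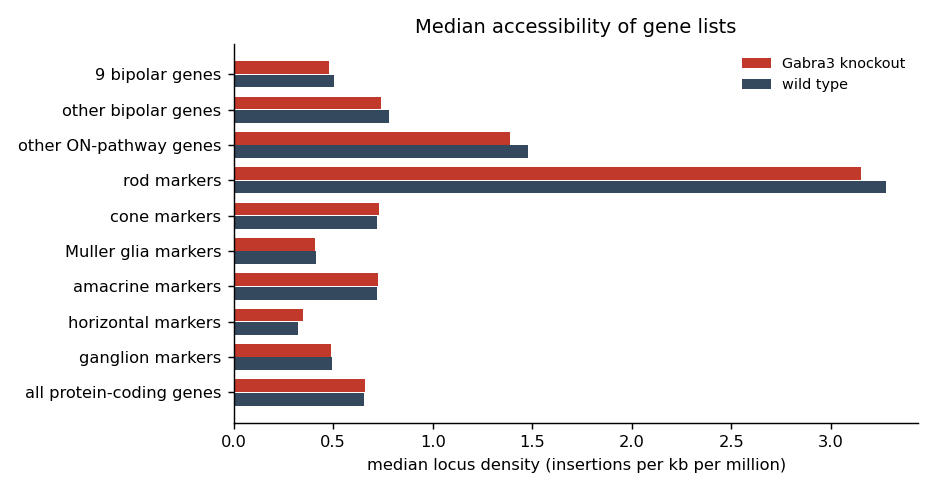
Median locus level, in insertions per kb per 1000000 autosomal insertions, of the 9 bipolar genes and of other gene lists, knockout above wild type in each pair. The 9 bipolar genes sit at 0.476 in knockout and 0.505 in wild type, below the rod genes at 3.15 in knockout and 3.28 in wild type and below the median gene.

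The 9 genes lay in the range of the genes of other retinal cell types. The median locus level of 6 Muller glia genes was 0.407 in knockout and 0.415 in wild-type retina, and that of 4 horizontal cell genes 0.348 in knockout and 0.320 in wild-type retina. For 6 ganglion cell genes it was 0.487 in knockout and 0.492 in wild type. It was 0.729 in knockout and 0.717 in wild type for 6 cone genes, and 0.724 in knockout and 0.718 in wild type for 5 amacrine genes. Lists of cells outside the neural retina (microglia, vessels, pigment epithelium and lens) lay between 0.505 and 0.821 in knockout and between 0.426 and 0.807 in wild-type retina. The list levels place the 9 genes; they are sums over whole loci in mixed tissue and do not measure cell numbers.

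Open regions lay at 7 of the 9 loci, 26 in all, and 68.7% of all protein-coding loci had at least 1. Prkca, the longest gene, had 13, Trpm1, Nyx and Gpr179 had 3 each, Cabp5 had 2, Vsx1 and Isl1 had 1 each, and Grm6 and Lhx4 had 0. Of 2424 loci between 50 and 80 kb long, the class of Lhx4, 15.9% had no open region, and of 3924 loci between 20 and 30 kb, the class of Grm6, 26.3% had none. The regions were small: a median of 350 bp wide with 22.5 insertions summed over both libraries, against 400 bp and 30 for all 36840 regions. An open region lay within 500 bp of 6 of the 10 annotated starts (Prkca, Isl1, Nyx, Gpr179, Cabp5 and Vsx1), against 52.5% of all annotated starts.

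Of the 7 starts with a CpG ratio under 0.35, 4 had an open region within 500 bp, where 8.36% of all 7635 such starts did. The regions at Cabp5, Vsx1 and Gpr179 were among the smallest called, with 9, 9 and 11 insertions summed. The smallest of all 36840 regions held 9. The region at Nyx lay wholly after the start. Of the 3 starts over 0.6, those of Prkca and Isl1 had one and that of Lhx4 had none, where 87.4% of all 10137 such starts did. Over all genes the median start under 0.35 held 2 knockout and 2 wild-type insertions, and the median start over 0.6 held 80 knockout and 82 wild-type insertions. Both limits on the CpG ratio were set after the counts were seen.

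**Figure D3:**
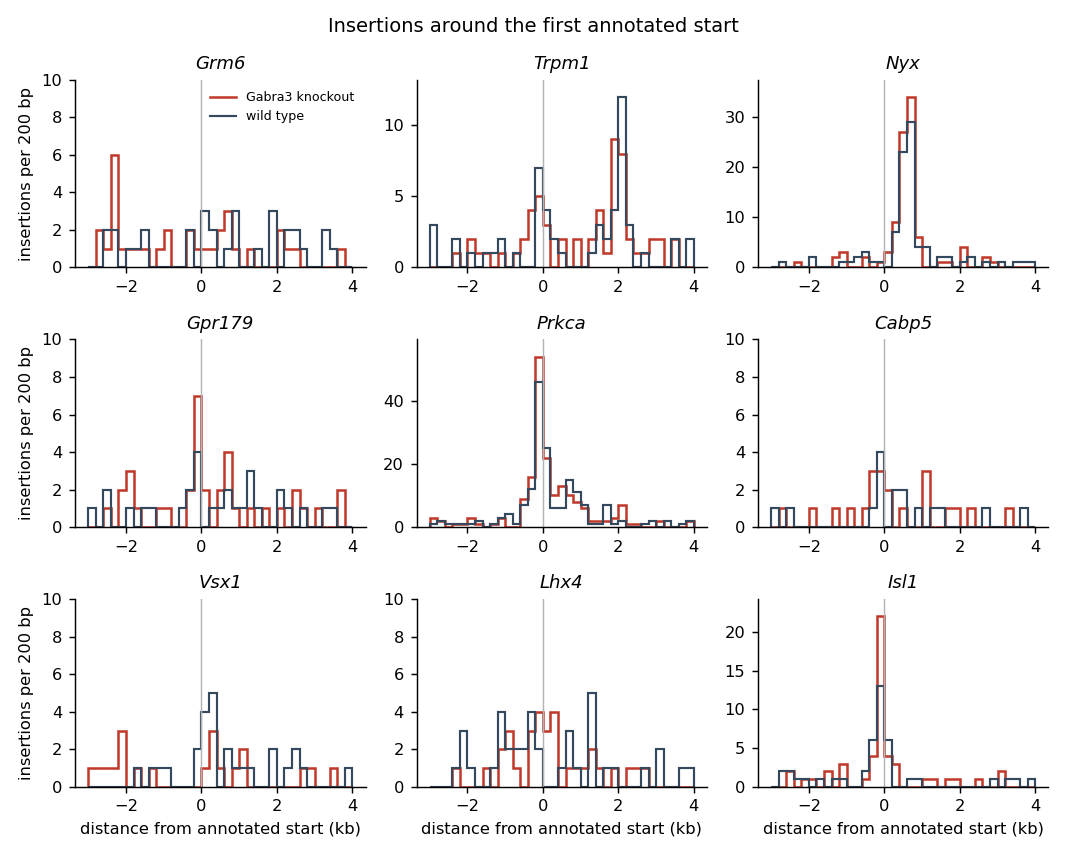
Insertions per 200 bp from 3 kb before to 4 kb after the first annotated start of each gene, knockout in red and wild type in dark blue, with a separate vertical scale per gene. Prkca and Isl1 peak at the start, Nyx and Trpm1 peak after it, and the bins of Grm6 hold at most 6 insertions.

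Grm6 encodes mGluR6, the glutamate receptor of ON bipolar cells (chromosome 11, 50850369 to 50866208, plus strand). Its locus held 92 knockout and 79 wild-type insertions, a log2 ratio of 0.22 (-0.23 to 0.67). At the annotated start there were 7 in each library, and in the 300 bases of promoter printed above there was 1 in each. Its start-side gene end held 4 knockout and 5 wild-type insertions and its far end 5 knockout and 1 wild-type insertions. No window of the locus met the rule for an open region at this depth. The 5 kb before the gene held 27 knockout and 18 wild-type insertions, the gene body 58 knockout and 50 wild-type insertions, and the 5 kb after it 7 knockout and 11 wild-type insertions.

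Trpm1 encodes the cation channel that mGluR6 controls (chromosome 7, 64153835 to 64269772, plus strand). Its locus held 431 knockout and 449 wild-type insertions (-0.06, -0.26 to 0.13), and the interval lies within 1.5-fold of equality. The first start held 12 knockout and 13 wild-type insertions, and the second start, 31624 bp further in, held 6 knockout and 8 wild-type insertions. The largest of its 3 open regions lay not at a start but centred 2065 bp after the first one, with 19 insertions in each library. The other regions lay 9765 and 11315 bp after the start, with 13 and 11 knockout insertions against 17 and 5 in wild type. The genes of the microRNAs Mir211 and Mir6416 lie within Trpm1, and none of the 3 regions reaches them.

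Nyx encodes nyctalopin, a leucine-rich repeat protein that holds TRPM1 at the dendritic tips (chromosome X, 13461090 to 13492820, plus strand). Its locus held 219 knockout and 251 wild-type insertions (-0.20, -0.47 to 0.07). One open region, 750 bp wide and centred 585 bp after the annotated start, held 76 knockout and 62 wild-type insertions (0.35, -0.15 to 0.86), second among the 26 only to the start of Prkca. The region lies wholly after the start (13461301 to 13462050), and the 300 bases of promoter held 2 knockout insertions and 1 in wild type. The other regions of Nyx lay 6585 and 19885 bp after the start, with 6 and 8 knockout insertions against 8 and 6 in wild type. The 3 regions together took 41.1% of the knockout and 30.3% of the wild-type insertions of the locus. A window of 500 bp either side of the start, with 20 knockout and 12 wild-type insertions (0.77, -0.31 to 1.96), cuts through the first region. A window of 1000 bp, which covers it, held 82 knockout and 71 wild-type insertions (0.27, -0.21 to 0.75). The pseudogene Gm14506 overlaps the far end of Nyx, and none of the 3 regions reaches it.

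Gpr179 encodes an orphan receptor that binds the regulators of G protein signalling in the same dendrites (chromosome 11, 97332109 to 97352356, minus strand). Its locus held 178 knockout and 136 wild-type insertions (0.38, 0.06 to 0.72). At the start there were 13 knockout and 8 wild-type insertions, and a small open region centred at -94 bp from it held 7 knockout and 4 wild-type insertions. The other regions lay past the far end of the gene, 1 of them inside the neighbouring gene Mrpl45, a mitochondrial ribosomal protein gene, with 17 insertions in each library, and 1 with 8 knockout and 13 wild-type insertions. Summed over its 3 open regions Gpr179 had 32 knockout and 34 wild-type insertions (-0.03, -0.77 to 0.71), while outside them the locus had 146 knockout and 102 wild-type insertions (0.51, 0.14 to 0.89). The ratio of the locus was 0.56 on the plus and 0.25 on the minus strand; the strands of single loci scattered, with 0.55 on the plus and -0.65 on the minus strand at Isl1 and -0.22 and 0.74 at Grm6.

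Prkca encodes protein kinase C alpha, the usual antibody marker of rod bipolar cells (chromosome 11, 107933387 to 108343888, minus strand). It is expressed in many other cells as well. Its locus held 2256 knockout and 2465 wild-type insertions (-0.13, -0.21 to -0.05), a small difference on a large count. The start had 111 knockout and 97 wild-type insertions (0.25, -0.15 to 0.66), by far the most of the 9 genes, and ranked 3279 in knockout and 4201 in wild-type retina among the start-side ends of all genes. The region over the start held 95 knockout and 84 wild-type insertions.

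The other 12 open regions of Prkca spread over its length. The next largest lay 45.7 kb into the gene, with 38 knockout and 33 wild-type insertions (0.26, -0.45 to 0.98), and another lay 8.06 kb in, with 14 knockout and 25 wild-type insertions (-0.76, -1.83 to 0.22). The fourth of the 13 by count lay at -4412 bp from the start, with 16 knockout and 17 wild-type insertions. Summed over all 13 regions Prkca had 251 knockout and 260 wild-type insertions (0.01, -0.25 to 0.26). Outside them the locus had 2005 knockout and 2205 wild-type insertions (-0.14, -0.23 to -0.05). Mir7223 and the long noncoding RNAs Gm51922 and Gm11655 lie within Prkca, and no region reaches them.

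Cabp5 encodes a calcium-binding protein of rod bipolar cells and some cone bipolar cells (chromosome 7, 13385960 to 13408887, plus strand). Its locus held 57 knockout and 70 wild-type insertions (-0.30, -0.83 to 0.23). The annotated start lies 12195 bp inside the gene as the table bounds it, and that start, not the gene end, carried an open region, with 5 knockout and 4 wild-type insertions over 200 bp. This region lies within the printed promoter. The gene end on the start side held 0 knockout and 2 wild-type insertions. The pseudogene Pla2g4c-ps reaches into the 5 kb before the gene. A region 10.3 kb after the start, near the far end, held 7 knockout and 13 wild-type insertions (-0.79, -2.40 to 0.60).

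Vsx1, Lhx4 and Isl1 encode homeodomain transcription factors. Vsx1, a factor of cone bipolar subtypes (chromosome 2, 150680702 to 150689137, minus strand), had 58 knockout and 47 wild-type insertions over its locus (0.30, -0.28 to 0.89). Its start held 4 knockout and 11 wild-type insertions, too few for a ratio here, and its only open region, centred 286 bp after the start, held 3 knockout and 6 wild-type insertions. The gene body alone turned the direction, with 23 knockout and 28 wild-type insertions (-0.28, -1.15 to 0.56).

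Lhx4, a LIM homeodomain factor of cone bipolar cells (chromosome 1, 155698031 to 155751726, minus strand), had 219 knockout and 240 wild-type insertions over its locus (-0.13, -0.41 to 0.14). The annotated start lies 9699 bp inside the gene, where the 500 bp either side held 14 knockout and 8 wild-type insertions (0.83, -0.49 to 2.33). Its start-side gene end held 5 knockout and 7 wild-type insertions. Among 17492 protein-coding genes with an annotated start, 3.21% had none within 9 kb of the gene end, as Lhx4 and Cabp5 did.

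Isl1, a LIM homeodomain factor of ON bipolar cells that ganglion cells and cholinergic amacrine cells also use (chromosome 13, 116298270 to 116309688, minus strand), had 88 knockout and 91 wild-type insertions over its locus (-0.05, -0.49 to 0.39). Its start held 34 knockout and 25 wild-type insertions (0.50, -0.28 to 1.31), of which 24 knockout and 18 wild-type insertions fell into the printed promoter. Its only open region, 500 bp wide over the start, held 29 knockout and 24 wild-type insertions (0.33, -0.50 to 1.18). After that of Prkca, the start-side end of Isl1 held the most insertions of the 9 genes in both libraries.

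**Figure D4:**
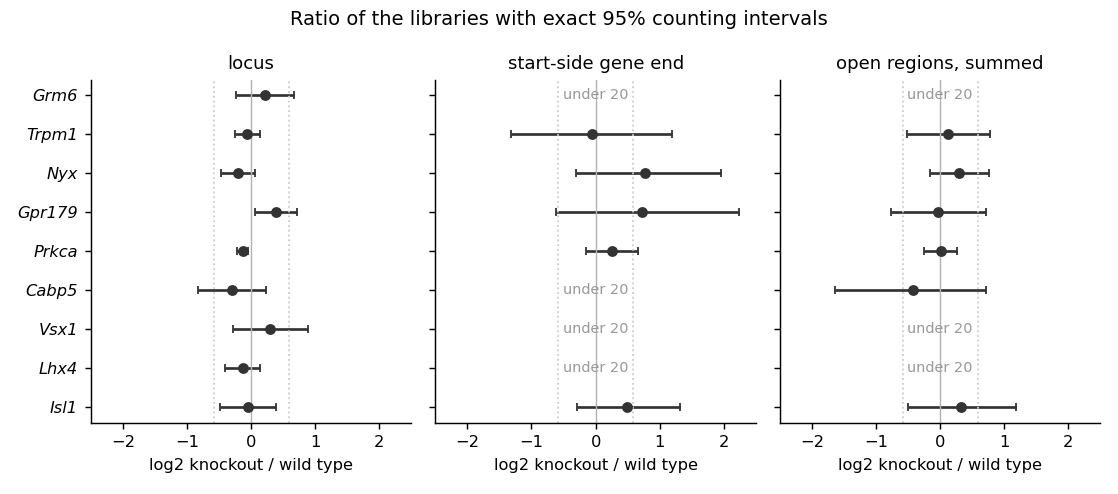
Log2 ratio of knockout over wild type for each gene over the locus, the start-side gene end and the summed open regions, with exact 95% counting intervals; dotted lines mark 1.5-fold, and counts under 20 summed are not plotted. Only the locus intervals of Gpr179, above 0, and Prkca, below 0, do not reach 0.

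Set side by side, none of the 9 loci was 1.5-fold apart between the libraries, but the counts leave room for such differences. The locus intervals reached past 1.5-fold at Grm6 (to 0.67), Gpr179 (to 0.72), Vsx1 (to 0.89) and Cabp5 (to -0.83). At each locus most insertions lay outside open regions, so the locus ratios mainly describe those. The rule for a difference was a ratio of at least 1.5-fold, given 20 or more insertions in both libraries together, and the share of all genes that met the rule in each direction is given beside each count. Of the 9 loci, 0 were higher in the knockout library by 1.5-fold (1.84% of 20330 loci) and 0 were lower (1.66%). The median log2 ratio of the 9 loci was -0.06, against -0.002 over all loci, and 3 were above 0 and 6 below, where 48.9% of all loci were above 0. The interval left out 0 at 2 of 9 loci, Gpr179 and Prkca, against 6.45% of all loci. Outside open regions it left out 0 at Gpr179, Prkca and Nyx, the last with 129 knockout and 175 wild-type insertions (-0.44, -0.78 to -0.11), against 6.39% of all loci; this count was added after the values were seen.

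Each of these 2 locus intervals came to include 0 under a single setting, given here, and left out 0 in the other alternatives run. Scaled to insertions in open regions in place of all autosomal insertions, the Prkca locus came to -0.07 (-0.15 to 0.01). Counted with 10 kb either side, the Gpr179 locus held 278 knockout and 233 wild-type insertions (0.25, -0.004 to 0.51). The share of autosomal insertions in open regions was 18.8% in knockout and 19.6% in wild-type retina, and its part in these ratios was not tested.

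At gene ends 5 of the 9 genes held at least 20 insertions, and 4 of those 5 had a ratio above 0, as did 53.6% of all gene ends measured. Nyx and Gpr179 were higher by 1.5-fold, against 4.00% of 11589 gene ends, and 0 were lower, against 3.21%. Both rest on small sums, 32 and 21 insertions, and among 2403 gene ends with 20 to 49 insertions 14.6% were higher by that margin. The intervals of all 5 included 0. The median of the 5 was 0.50, that of Isl1, against 0.02 over all gene ends; the other 4 genes could not enter it. Scaling to all autosomal insertions turned the balance over all gene ends, to 367 higher and 461 lower from 463 higher and 372 lower, and left Nyx and Gpr179 past 1.5-fold.

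Summed over open regions, 6 genes held at least 20 insertions, and 0 of them were higher by 1.5-fold (1.69% of 13935 genes) or lower (2.54%). The largest sums gave the narrowest intervals: 251 knockout and 260 wild-type insertions for Prkca, and 90 knockout and 76 wild-type insertions for Nyx (0.30, -0.15 to 0.76). With the other scaling the split over all genes moved to 178 higher and 461 lower, against 236 higher and 354 lower, and that over loci to 500 higher and 269 lower, against 374 higher and 338 lower.

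Of the 26 single regions, 16 held at least 20 insertions. A region 107.6 kb into Prkca was higher by 1.5-fold, with 13 knockout and 8 wild-type insertions, against 5.45% of 24258 regions. Lower were 4, against 7.86%: those 8.06 and 57.1 kb into Prkca, the one past Gpr179 with 8 knockout and 13 wild-type insertions, and the one 10.3 kb into Cabp5. The regions at 107.6 and 57.1 kb are named because their values met the rule. All 5 held 39 insertions or fewer, and among regions with 20 to 49 insertions 10.4% were higher and 15.3% lower. The intervals of the 16 regions all included 0.

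**Figure D5:**
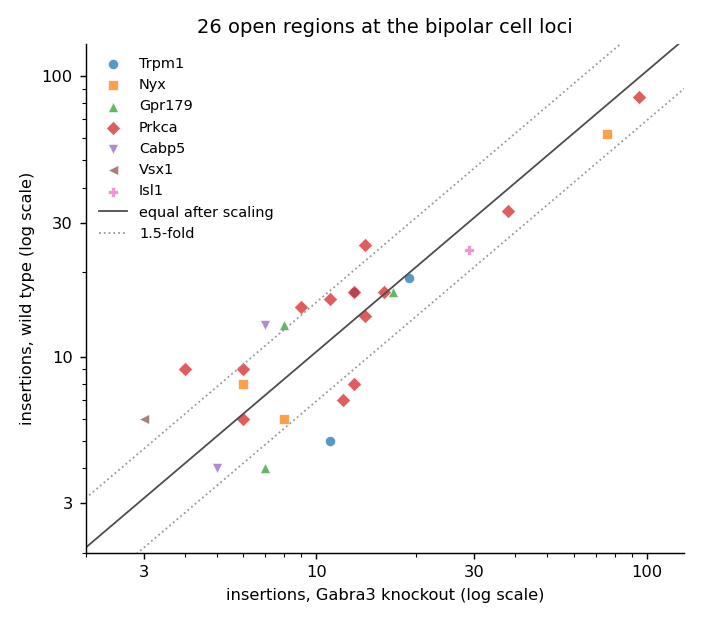
Insertions in each of the 26 open regions at the bipolar cell loci, knockout on the horizontal and wild type on the vertical axis, both on log scales; the solid line marks equality after scaling, dotted lines mark 1.5-fold, and points with equal counts overlap. The 3 regions with most insertions, at Prkca and Nyx, lie within the dotted lines, and the wider scatter is among regions with few insertions.

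Other genes of the ON pathway had a higher median level than the 9. The list held Gnao1, Gnb3, Gnb5, Gng13, Rgs7, Rgs11, Rgs7bp, Lrit3, Pcp2 and Elfn1, with a median locus level of 1.39 in knockout and 1.48 in wild-type retina. These levels include the 5 kb either side, and Gng13, Pcp2 and Gnb3 are shorter than the flanks counted with them. Other genes within those flanks were not examined for this list. Of 9 measured gene ends 2 were higher by 1.5-fold (4.00% of all gene ends) and 0 lower (3.21%), and the median log2 ratio was -0.06, against 0.02 over all gene ends. Over loci 4 of 10 ratios were above 0 and 6 below, with a median of -0.08, where 48.9% of all loci were above 0. The interval left out 0 at 1 locus, against 6.45% of all loci. It was that of Gnao1, named after its value was seen, with 965 knockout and 1076 wild-type insertions (-0.16, -0.29 to -0.03). At its gene end Elfn1, a synaptic adhesion protein of photoreceptors that binds mGluR6, had 54 knockout and 35 wild-type insertions (0.68, 0.04 to 1.34). The gene end of Gng13, a G protein gamma subunit, had 26 knockout and 17 wild-type insertions (0.66, -0.26 to 1.65). Summed over its 6 open regions Elfn1 had 209 knockout and 219 wild-type insertions (-0.01, -0.29 to 0.27). Among all 11589 measured gene ends the interval left out 0 at 375. Gng13 falls among the ends with 20 to 49 insertions, of which 14.6% were higher. Lrit3, a leucine-rich repeat protein of the same synapse, had 42 knockout and 65 wild-type insertions (-0.57, -1.17 to 0.01), and Pcp2, a regulator of the same G protein, had 8 knockout and 12 wild-type insertions (-0.50, -2.02 to 0.89).

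The other bipolar transcription factors and markers were counted the same way. Of 15 genes (Otx2, Bhlhe22, Bhlhe23, Prdm8, Irx5, Irx6, Lhx3, Neurod4, St18, Sebox, Scgn, Cabp2, Grik1, Neto1 and Tacr3), 10 gene ends were measured, 2 of them higher by 1.5-fold (4.00% of all gene ends) and 2 lower (3.21%), with a median of 0.006, against 0.02 over all gene ends. Of these 4, the ends of Bhlhe23, Bhlhe22 and Neurod4 held 25 insertions or fewer. Over all gene ends with 20 to 49 insertions 14.6% were higher. The share of such ends that were lower, the direction of Neurod4, was not counted. Over whole loci 2 of the 15 had a ratio above 0 and 13 below, where 48.9% of all loci were above 0, and the median was -0.14, against -0.002 over all loci. None of the 15 loci was 1.5-fold apart. The interval left out 0 at 1 locus, that of Irx5, a homeodomain factor of cone bipolar cells, named after its value was seen, with 100 knockout and 147 wild-type insertions (-0.56, -0.94 to -0.18). Bhlhe23, a factor of rod bipolar cells, had 14 knockout and 8 wild-type insertions (0.83, -0.49 to 2.33), and Bhlhe22, a factor of cone bipolar and amacrine cells, had 15 knockout and 10 wild-type insertions (0.62, -0.61 to 1.96). Otx2, a factor of photoreceptors and bipolar cells, had 17 knockout and 40 wild-type insertions (-1.15, -2.09 to -0.32), but 81 knockout and 84 wild-type insertions summed over its 3 open regions (0.01, -0.45 to 0.46). Neurod4, a proneural factor, had 7 knockout and 13 wild-type insertions (-0.79, -2.40 to 0.60), and 10 knockout and 25 wild-type insertions over its 2 open regions (-1.22, -2.49 to -0.15). Summed over open regions it was the 1 gene of 10 measured in this list that was lower by 1.5-fold, against 2.54% of 13935 genes. Among those 13935 genes the interval left out 0 at 468.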

How the data were processed

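Per the labels, nuclei of neural retina were tagged with Nextera reagents, and single-end reads of 75 bp were made. The submitters' processing notes name Trimmomatic 0.33, BWA, bedtools 2.23.0 and GRCm38 (mm10), without their roles. Whether duplicates were removed is not given in the sources used here. Each line of a deposited file gives the position of 1 aligned read, and its score column as deposited holds the mapping quality of the read, from 0 to 37, with no normalization.

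Reads with mapping quality of at least 10 were kept (93.4% of 9038110 knockout and 93.6% of 9170838 wild-type reads). Their 5′ ends were shifted by 4 bp (plus strand) or -5 bp (minus strand) and counted once per position and strand, which dropped 9.41% of knockout and 11.0% of wild-type reads; single-end reads from separate molecules can share an end, so some true insertions may be lost. Open regions came from both libraries together: windows of 200 bp, moved by 50 bp, were kept at a Poisson p below 1e-05, with the expected count from the genome or the 10000 bp around, whichever was higher, and joined across gaps of up to 150 bp. Gene positions came from RefSeq (GRCm38.p6). The start-side end followed the RefSeq strand for 17492 genes and was the end with more insertions for 4395. Log2 ratios used a pseudocount of 0.5. They were scaled to autosomal insertions in open regions, except whole loci and parts of them, which were scaled to all autosomal insertions. The region caller and the intervals were tested on simulated data (Python 3.11.15, scipy 1.17.1).

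The members and lists were chosen with earlier results of these data known. In the rod list and the list of other bipolar genes, 1 gene each is not reported here and was left out of the counts and medians. Named genes are the 9 members and, of the 2 further lists, the 2 highest and 2 lowest measured gene ends, with up to 4 open regions per member and overlapping genes as neighbours. Gnao1 and Irx5 were named in addition, for their locus intervals. Alternatives changed scaling, duplicates, mapping quality, shift, pseudocount, windows, minimum and fold.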

Additional observations from a re-analysis of the deposited data

How the results depend on the processing

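No paired analysis was possible because each genotype has 1 library; leaving out a replicate was not possible for the same reason. The median over the 9 loci (-0.06) ran from -0.14 without flanks to 0.0001, at which its sign turned, with the other scaling. The median over gene ends (0.50) ran from 0.26 to 0.70 and stayed above 0. The count of loci 1.5-fold apart was 0 in both directions in every alternative run. At gene ends the count of genes higher in the knockout library (2) came to 0 with 250 bp windows, 1 with 1000 bp windows, 0 at 2-fold and 0 with a minimum of 100 insertions; narrower windows and a higher minimum leave fewer genes above the minimum. The count lower (0) came to 1 with 1000 bp windows, and to 2 with no minimum, which admits Cabp5 and Vsx1. With mapping quality of at least 30, 3 were higher, Isl1 being the third. With annotated starts, an alternative chosen after seeing the data, 3 were higher, Lhx4 being the third. Of 133 values of single genes, 132 stayed within the interval of the main value and 0 that were 1.5-fold apart changed sign; the exception was the Vsx1 locus without flanks. For 12 of 20 ratios the sign was the same in all alternatives. For the other 8 it turned in at least 1 alternative, and the cause was not tested. Depth limits the precision: with 32 insertions the interval at the end of Nyx ran from -0.31 to 1.96.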
